A study of Mus musculus with 19 samples.

Results

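The transcripts described here encode 10 enzymes that make and desaturate fatty acids: Acly, Acss2, Me1, Acaca, Fasn, Elovl6, Scd1, Scd2, Fads1 and Fads2. They were chosen by name, and each matched a single row among the 20408 genes in bulk RNA-Seq of the mouse suprarenal aorta (SRA). All 10 reached 10 normalized counts in 4 or more mice and so were among the 14845 genes tested. The 19 mice were male, on a C57BL6 background, fed regular chow, given at 8 weeks of age in the labels, and killed 24 h after subcutaneous osmotic pumps began to deliver saline or angiotensin II (Ang II). The labels give the dose of Ang II as 500 to 1000 ng/min/kg, and the methods name 1000 ng/min/kg for the mice used for RNA-Seq. Each mouse carried SMA-CreERT2, a tamoxifen-inducible Cre recombinase driven by the smooth muscle actin promoter, lacked ApoE (ApoE-/-) and had received tamoxifen. In the methods tamoxifen began at 8 weeks of age and the pumps followed after a rest, so the mice were older than 8 weeks when infused. The IKKβ-/- mice (labelled KO) were also IkkbFlox/Flox, so that the kinase IKKβ of the NF-κB pathway was deleted in smooth muscle while other cells of the wall kept it, whereas the IKKβ+/+ mice (labelled WT) had unfloxed alleles. There were 5 saline-infused and 5 Ang II-treated IKKβ+/+ mice, and 4 saline-infused and 5 Ang II-treated IKKβ-/- mice, with 1 library for each mouse.

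De novo lipogenesis turns citrate and acetate into saturated and monounsaturated fatty acids in the cytosol. Adipocytes and hepatocytes carry it out at high rates, Schwann cells use it for myelin, and it is driven at the transcript level by SREBP-1c, ChREBP and the liver X receptors. ACLY cleaves citrate to acetyl-CoA, ACSS2 makes acetyl-CoA from acetate, and ME1 (malic enzyme) supplies NADPH. ACACA (acetyl-CoA carboxylase) makes malonyl-CoA, and FASN (fatty acid synthase) assembles palmitate from it. ELOVL6 lengthens palmitate to stearate, SCD1 and SCD2 place the double bond that gives oleate and palmitoleate, and FADS1 and FADS2 desaturate polyunsaturated fatty acids of the diet.

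The 2 transcripts that passed the test as lower in IKKβ-/- SRAs with saline were Acly and Fasn, and stretches of sequence just upstream of their starts are shown for that reason. RefSeq promoter windows (GRCm38.p6) were found for 7 of the 10 genes, namely Acly, Acss2, Me1, Acaca, Fasn, Elovl6 and Fads2. Both stretches lie on the minus strand of chromosome 11 and are written 5′ to 3′ as the gene reads, with motif matches in capitals.
Fasn, chr11:120824578-120824657: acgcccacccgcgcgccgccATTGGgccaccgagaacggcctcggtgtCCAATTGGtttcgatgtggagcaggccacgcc
Acly, chr11:100528066-100528165: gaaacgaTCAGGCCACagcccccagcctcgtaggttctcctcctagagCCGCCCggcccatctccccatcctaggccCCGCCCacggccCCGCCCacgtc

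The motifs searched on both strands of the 250 bases before each annotated start were TCACNCCAC and the looser TCANNCCAC (sterol regulatory element), CCAAT (NF-Y), CACGTG (E-box) and GGGCGG (GC box). The Fasn stretch held 3 CCAAT matches, on the reverse strand from base -90 and base -59 and on the forward strand from base -62 counted from the annotated start, and the last pair shared bases. A CCAAT match was present in 33.8% of all 32851 windows. The Acly stretch held 1 match to TCANNCCAC, from base -158, and 3 GC boxes on the reverse strand, from bases -117, -88 and -76. Matches to TCANNCCAC were found in 3.52% of all windows and GC boxes in 32.7%. TCACNCCAC, found in 1.05% of windows, and CACGTG, found in 6.02%, had no match in the windows of the members, and the windows of Acaca and Elovl6 held none of the motifs. These matches describe the letters of the windows only.

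The libraries held between 11382573 and 19906694 reads on genes, and mt-Co1 was the most abundant transcript in each, with 1.82% to 11.7% of the reads. The highest mt-Co1 shares were in the IKKβ-/- mice X2406 (saline) and X2385 (Ang II). In IKKβ+/+ mice the share was 1.82% to 3.91%. In IKKβ-/- mice it was 2.36% in X2383, 2.83% in X2409 and 4.78% to 11.7% in the rest. The part of this difference between libraries in the results below was not tested. Smooth muscle markers were high throughout, with Acta2 at 113336 to 301107 and Myh11 at 61000 to 167445 normalized counts. The targeted transcript, Ikbkb, was at 594 to 791 and 685 to 779 normalized counts in saline-infused and Ang II-treated IKKβ+/+ SRAs, and at 439 to 586 and 430 to 672 in the corresponding IKKβ-/- groups. Averaged over treatments Ikbkb was lower in IKKβ-/- mice by a log2 fold change of -0.40 (SE 0.0856, adjusted p = 0.0232). Between the genotypes it passed the test with saline (-0.39) but not with Ang II (-0.42). The aorta is a mixed tissue, and in such bulk samples fewer cells of a type and less RNA per cell cannot be told apart.

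White adipocyte markers differed widely between these libraries. The SRAs had been cleared of adventitial fat, yet all 14 white adipocyte markers were in the table and none was at 0 throughout a group. Their summed level was 5158 to 30358 normalized counts in saline-infused and 7946 to 17486 in Ang II-treated IKKβ+/+ mice. In IKKβ-/- mice the sum was 5478 to 8929 with saline and 9863 to 68816 with Ang II. The Ang II-treated IKKβ-/- mice X2384 and X2385, at 68816 and 65127, stood apart from all other mice. The gene for adiponectin, Adipoq, was higher after Ang II in IKKβ-/- mice by a log2 fold change of 4.70 (SE 0.949, adjusted p = 0.0129). In that comparison 11 of 13 markers tested passed as higher, and the median of their log2 fold changes was 3.997. In IKKβ-/- against IKKβ+/+ mice with saline 1 of 13 passed, as lower, and the median was -2.13. After Ang II in IKKβ+/+ mice none of 13 passed and the median was 0.42. Brown adipocyte markers were also present, with no call among 6 tested in these 3 comparisons, and Ucp1, the uncoupling protein of brown fat, was at 1156 counts in X2384, 283 in X2378, 124 in X2403 and at most 24.8 in the others. The part of these cells in the results below was not tested apart from the fits and relations given with them.

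Per kilobase of merged exon, Scd1 had the highest level, followed by Scd2, the Fads genes, Me1 and Acly, then Fasn, and last Acaca, Acss2 and Elovl6. The median over the 19 mice was 971 normalized counts per kilobase for Scd1 (range 204 to 4411). It was 388 for Scd2, 335 for Fads1, 313 for Fads2, 287 for Me1 and 285 for Acly, and the ranges of these 5 genes overlapped one another and that of Scd1. Fasn followed at 152 (range 42.1 to 733), overlapping all of them. Acaca, Acss2 and Elovl6 had medians of 32.0, 28.2 and 23.9, with overlapping ranges whose highest value, 78.0, was below the lowest value of any of the genes from Scd2 to Acly in this order. The merged exons of Acaca (17074 bases) and Acss2 (10163 bases) include exons of several transcripts, which lowers their values on this scale. Spread between mice was widest for Scd1, whose highest mouse was 21.6 times its lowest, and for Fasn, at 17.4 times. It was narrowest for Fads1, at 2.34 times.

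A single mouse was at the top of the saline-infused IKKβ+/+ group for all 10 members. This was X2370, which was also the highest of all 19 mice for 7 of them and had the highest adipocyte marker sum of its group, 30358, and the deepest library. Its mt-Co1 share, 1.82%, was the lowest of all mice. X2372 was the lowest of that group for 8 of the 10 members and had the lowest marker sum of all mice, 5158. In saline-infused IKKβ-/- mice, X2406 was lowest for 7 members and X2409 highest for 7.

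**Figure D1:**
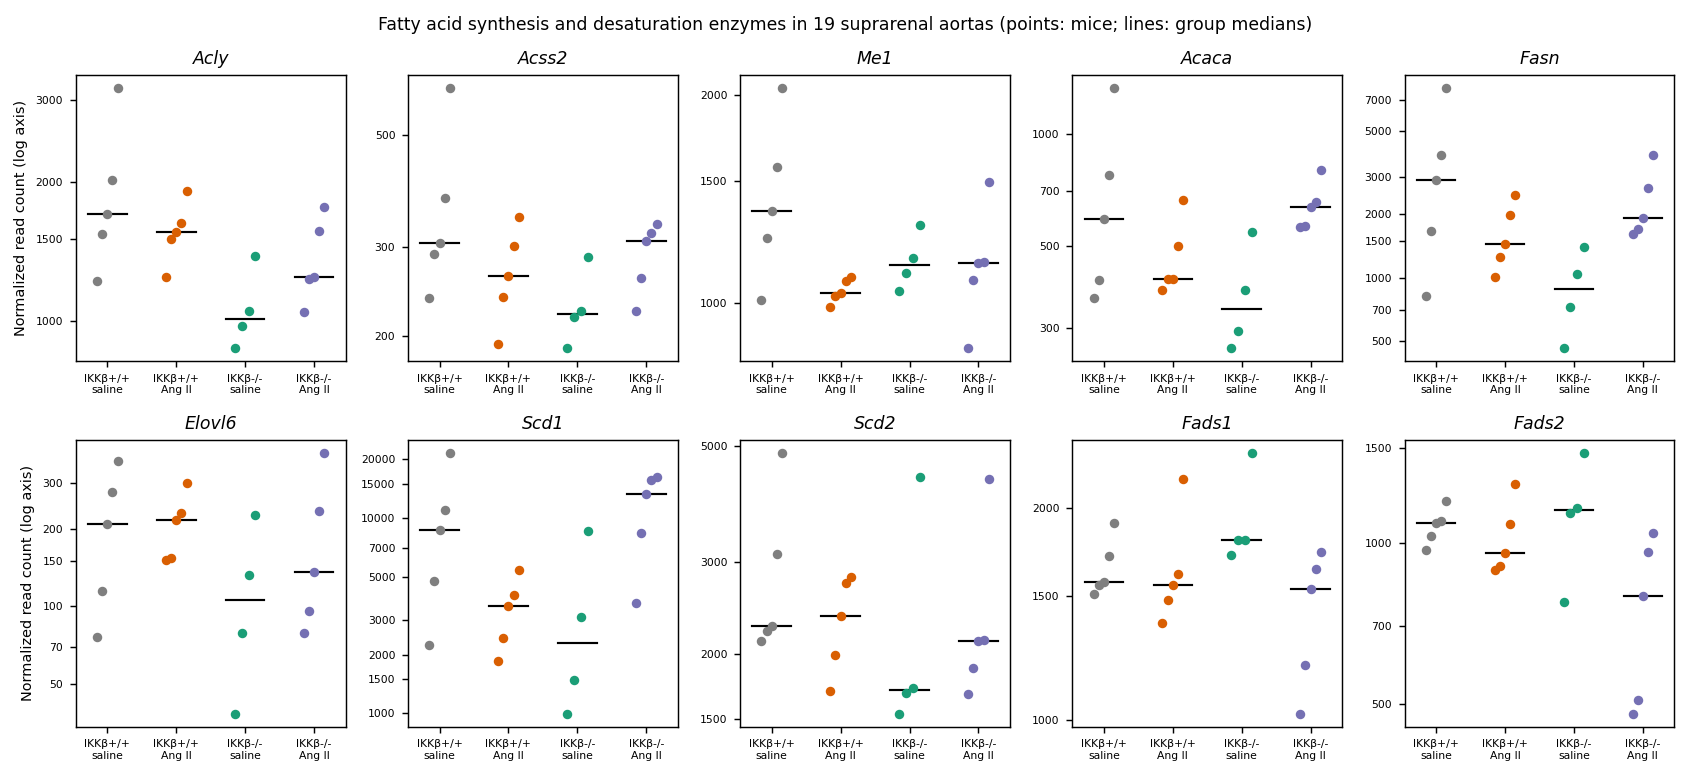
Normalized read counts (log axis) of the 10 enzymes in each of the 19 mice, by group, with group medians as lines. Fasn and Acaca are higher in all 5 Ang II-treated than in all 4 saline-infused IKKβ-/- mice, and X2370 is the top grey point in each panel.

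The first comparison asks what 24 h of Ang II did in IKKβ+/+ SRAs. None of the 10 members passed the test (limma, Benjamini-Hochberg p below 0.1 with a fold change over 1.2), where 8.66% of all genes tested did. Me1 alone had an unadjusted p under 0.05. The log2 fold changes of 9 of 10 members were negative, with a median of -0.34 against 0.01 over all genes, and Elovl6 was the exception at 0.18. Without X2370 the median was -0.11 and 2 members were positive. No member had groups that did not overlap, which 8.42% of genes had.

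Me1 was closest to the threshold in this comparison. It was at 2050, 1010, 1241, 1575 and 1359 normalized counts in saline-infused and at 986, 1089, 1033, 1075 and 1022 in Ang II-treated IKKβ+/+ mice. The treated mice lay within a narrow band that overlapped only the lowest saline-infused mouse. Its log2 fold change was -0.43 (95% interval -0.75 to -0.12, adjusted p = 0.106). Me1 passed as lower with edgeR (adjusted p = 0.0774), with DESeq2 (0.0444), with TMM scaling (0.0952) and with sample weights (0.0649). It did not pass with only the 2 groups in the fit (0.105), with the brown adipocyte score (0.119), with another pseudocount or without the filter. It passed on leaving out 3 of the 19 mice in turn, with estimates over all omissions of -0.55 to -0.30 (adjusted p 0.0488 to 0.253).

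Scd1 had the largest estimate among the members. Its counts were 21578, 2238, 4752, 8697 and 10954 with saline and 2431, 3534, 5396, 1866 and 4024 with Ang II. The 3 highest mice were all saline-infused, but 2 saline-infused mice, X2372 and X2373, lay among the treated ones. The log2 fold change of -1.19 (95% interval -2.40 to 0.01) had an adjusted p of 0.251. Fasn, at 8021, 819, 1660, 2926 and 3845 with saline and 2476, 1453, 1249, 1008 and 1979 with Ang II, had a log2 fold change of -0.75 (95% interval -1.69 to 0.18, adjusted p = 0.358). Among saline-infused mice the highest value was 9.64 times the lowest for Scd1 and 9.79 times for Fasn, and changes of the estimated size were not detectable against that spread.

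The sterol branch of lipid synthesis draws on the same acetyl-CoA. Of 21 genes on a list of cholesterol metabolism, 13 passed as higher after Ang II in IKKβ+/+ mice, all 21 estimates were positive, and their median was 0.95 on the log2 scale. The largest were Fdps, for farnesyl diphosphate synthase, at 2.42 (SE 0.648, adjusted p = 0.0406), and Sqle, for squalene epoxidase, at 1.53 (SE 0.370, adjusted p = 0.0258). Hsd17b7, for an enzyme of late cholesterol synthesis, had a log2 fold change of 1.42 (adjusted p = 0.0171). In IKKβ-/- mice none of the 21 passed after Ang II, with a median of 0.07. The difference between the genotypes had a median of -0.88 over the list, and no gene of it passed the test of that difference.

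The remaining lists held few calls in IKKβ+/+ mice. None of 18 genes of carbon and NADPH supply passed. Of 25 genes of acyl-CoA use in glycerolipids, Lpin3, a phosphatidate phosphatase, and Agpat4, an acyltransferase, passed as higher at 0.64 (adjusted p = 0.0230) and 0.48 (0.0469). Cell type markers moved too. As higher, 3 of 8 smooth muscle markers (median 0.33) and 1 of 5 of striated muscle (median 0.75) passed. As lower, 1 of 7 endothelial (median -0.62) and 1 of 7 fibroblast markers (median -0.55) passed. The part of these shifts in the results was not tested.

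In the second comparison, Ang II against saline in IKKβ-/- SRAs, 1 of 10 members passed, Scd1, where 5.29% of all genes did. Of the 10 estimates 7 were positive, with a median of 0.34 where that of all genes was close to 0. Fasn and Acaca were higher in every treated mouse than in every saline-infused mouse, a separation that 5.29% of genes showed.

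Scd1, the main stearoyl-CoA desaturase of adipose tissue and liver (ENSMUSG00000037071.3, minus strand, chr19:44394455-44407879, GRCm38), was at 1483, 8573, 1000 and 3107 normalized counts in saline-infused and at 16308, 3697, 15657, 8414 and 13330 in Ang II-treated IKKβ-/- mice. The groups overlapped, because the saline-infused mouse X2403 was above 2 of the 5 treated mice. The fitted level was 4.03 times higher after Ang II (log2 fold change 2.01, SE 0.612, 95% interval 0.73 to 3.29, adjusted p = 0.0826). The call was lost on leaving out any 1 of 8 mice, X2352, X2376, X2380, X2384, X2385, X2386, X2401 or X2406, with log2 fold changes of 1.57 to 2.08 and adjusted p from just over 0.1 to 0.254. Without X2384 and X2385, which stood apart in adipocyte markers, it was 1.89 (SE 0.726, adjusted p = 0.237).

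Fasn (ENSMUSG00000025153.9, minus strand, chr11:120805846-120824547) was at 723, 1041, 461 and 1396 with saline and at 1697, 1928, 3847, 2677 and 1616 with Ang II. The groups did not overlap. The log2 fold change was 1.41 (SE 0.474, 95% interval 0.42 to 2.40), with an adjusted p of 0.114. Acaca (ENSMUSG00000020532.18, plus strand, chr11:84129672-84401651) showed the same separation, with 294, 379, 265 and 546 counts against 563, 564, 798, 636 and 656. Its log2 fold change was 0.84 (SE 0.291, adjusted p = 0.129). When only these 2 groups entered the fit, Fasn and Acaca passed (adjusted p = 0.0676 and 0.0830) and Scd1 did not (0.147). Without X2384 and X2385 the estimates were 1.06 for Fasn (SE 0.540, adjusted p = 0.379) and 0.73 for Acaca (SE 0.344, adjusted p = 0.339).

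Fads1 and Fads2 had estimates of the opposite sign. Fads2 (ENSMUSG00000024665.8, minus strand, chr19:10062765-10101746) was at 1138, 1162, 775 and 1471 with saline and at 961, 1042, 481, 509 and 794 with Ang II. The lowest mice, X2384 and X2385, were those with the highest adipocyte marker sums. Its log2 fold change was -0.62 (SE 0.209, adjusted p = 0.117), and that of the neighbouring Fads1 (ENSMUSG00000010663.5, plus strand, chr19:10182888-10196877) was -0.45 (SE 0.156, adjusted p = 0.128). Both passed as lower with sample weights (adjusted p = 0.0426 and 0.0968), and Fads2 with DESeq2 (0.0867). Without X2384 and X2385 the estimates were nearer to 0, at -0.26 for Fads2 (SE 0.174, adjusted p = 0.530) and -0.23 for Fads1 (SE 0.147, adjusted p = 0.510).

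The remaining members did not pass in IKKβ-/- mice, and in each the groups overlapped. Elovl6 was at 38.6 to 227 counts with saline and 78.7 to 392 with Ang II, and Scd2 at 1535 to 4358 and 1676 to 4325. Acss2 was at 189 to 287 and 225 to 333, and Me1 at 1038 to 1296 and 859 to 1496. Elovl6 (ENSMUSG00000041220.10, chr3:129532355-129638495) had a log2 fold change of 0.67 with an interval from -0.39 to 1.74. The estimates were 0.35 for Acly, 0.33 for Acss2, 0.12 for Scd2 and -0.02 for Me1. The interval for Me1, -0.36 to 0.31, was the narrowest of these.

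Genes that carry fatty acids onward into glycerolipids, or release them, also passed in this comparison. Of 25 tested, 10 passed as higher and none as lower, and the median was 0.49 on the log2 scale. The largest were Cd36, a fatty acid transporter, at 2.35 (adjusted p = 0.0221), Gpat3, an acyltransferase of triglyceride synthesis, at 2.22 (0.0277), Lipe, hormone-sensitive lipase, at 2.20 (0.0267), and Fabp4, an adipocyte fatty acid binding protein, at 2.17 (0.0433). Lipe and Fabp4 are also on the list of white adipocyte markers. Of 18 genes of carbon and NADPH supply, Pcx, for pyruvate carboxylase, and Aacs, for acetoacetyl-CoA synthetase, passed as higher at 3.08 (adjusted p = 0.00958) and 0.96 (0.0783), and Idh2, for mitochondrial isocitrate dehydrogenase, as lower at -0.49 (0.0246).

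Other elongases, desaturases and enzymes of fatty acid synthesis formed a further list. Of 24 tested, 4 passed as higher and 1 as lower. Hacd2 and Hsd17b12, which catalyse steps of the elongation cycle, had log2 fold changes of 0.73 (adjusted p = 0.0546) and 0.72 (0.0129). Hacd4 was lower at -0.44 (0.0242), and Hacd3 was higher at 0.38 (0.0474). In IKKβ+/+ mice the genes of this list that passed were Elovl1 at 0.77 (adjusted p = 0.0271), Fads3 at 0.73 (0.0467), Degs1 at 0.44 (0.0331) and, as lower, Hacd4 at -0.61 (0.00215). Hacd4 passed as lower in both genotypes.

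Of 35 regulators, 3 passed in IKKβ-/- mice after Ang II. Pparg, the adipocyte receptor and transcription factor, was higher by 1.68 (adjusted p = 0.0319) and is also a marker on the adipocyte list. Nr1h3, for liver X receptor alpha, was higher by 1.40 (0.00566), and Irs2, for insulin receptor substrate-2, was lower by -1.55 (0.0254). Srebf1 and Mlxipl, which encode SREBP-1 and ChREBP, had estimates of 0.45 (adjusted p = 0.326) and 0.49 (0.602). In IKKβ+/+ mice the list had 1 gene that passed, Irs1 at -0.48 (adjusted p = 0.0535).

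**Figure D2:**
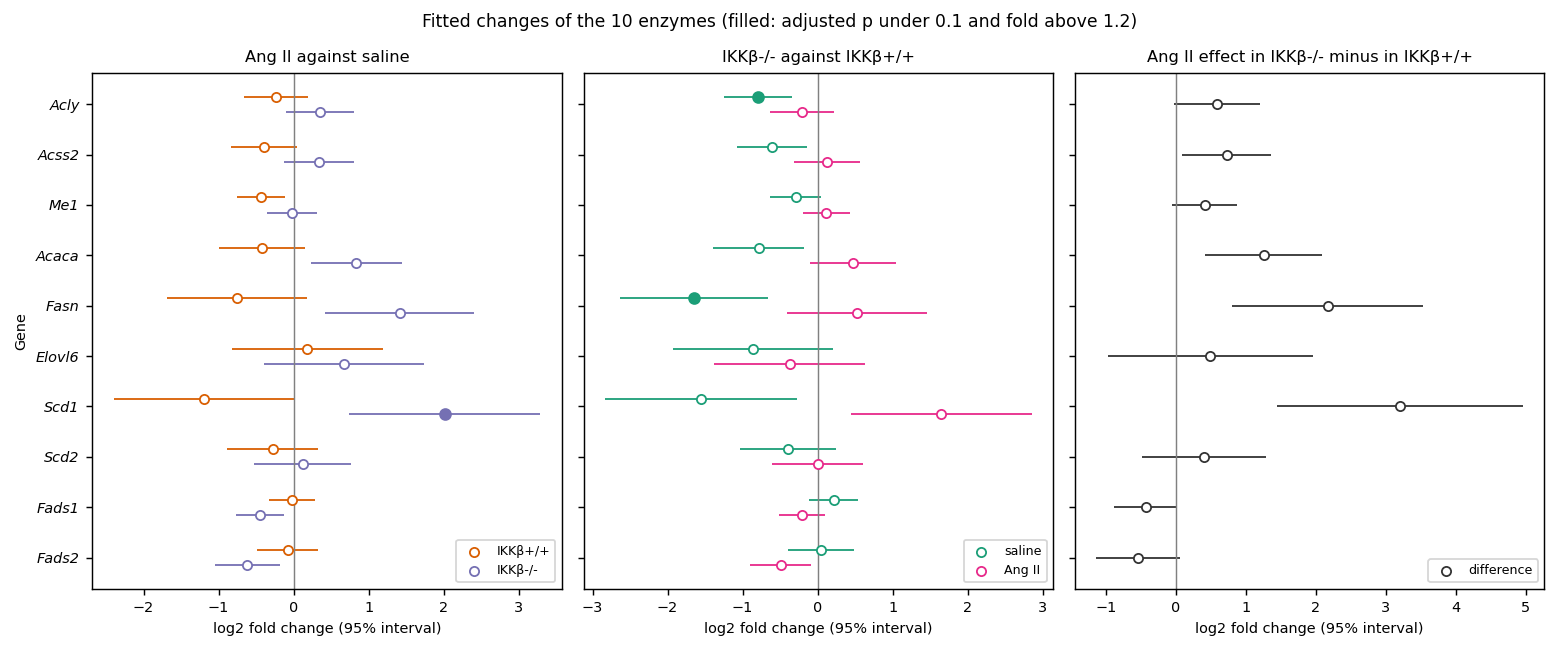
Fitted log2 fold changes of the 10 enzymes with 95% intervals for Ang II against saline in each genotype (left), IKKβ-/- against IKKβ+/+ with each infusion (middle) and the difference between the Ang II effects (right). Filled points passed the test: Scd1 at 2.01 in IKKβ-/- mice, and Acly at -0.80 and Fasn at -1.65 between saline-infused mice.

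Whether Ang II acted differently in the 2 genotypes was tested as the difference between these effects. No member passed, and neither did any gene tested (0% of 14845), although 1654 genes had an unadjusted p under 0.05. DESeq2 on the reads passed 3 members and 279 of the 14845 genes in this comparison. The estimate of the difference was positive for 8 of 10 members, with a median of 0.54 where that of all genes was close to 0. Without X2370 the median was 0.33, with 8 still positive.

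Scd1 had the largest difference, 3.21 on the log2 scale (SE 0.842, 95% interval 1.45 to 4.96, adjusted p = 0.242). Measured against the mean log2 level of the saline-infused mice of its genotype, it was lower in all 5 treated IKKβ+/+ mice and higher in all 5 treated IKKβ-/- mice. Fasn had the same pattern, with a difference of 2.17 (SE 0.652, 95% interval 0.81 to 3.53, adjusted p = 0.269), and Acaca had a difference of 1.25 (SE 0.400, adjusted p = 0.288). With DESeq2 the adjusted p was 0.0436 for Scd1, 0.0559 for Fasn and 0.0787 for Acaca. For Fads1 and Fads2 the differences were -0.43 and -0.54, with intervals that reached 0.02 and 0.06, and without X2384 and X2385 they were -0.21 and -0.18.

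In the comparison of the genotypes with saline, 2 of 10 members passed, both lower in IKKβ-/- SRAs, where 5.47% of all genes passed. Of the 10 estimates 8 were negative, where the median was -0.70 and that of all genes -0.02, and those of Fads1 and Fads2 were positive. Without X2370 the median was -0.45. No member had groups that did not overlap, against 8.76% of genes.

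Acly (ENSMUSG00000020917.17, minus strand, chr11:100476353-100528000) was at 3198, 1220, 1539, 1701 and 2013 normalized counts in IKKβ+/+ and at 1047, 974, 872 and 1382 in IKKβ-/- mice. Of the 4 IKKβ-/- mice, 3 lay below every IKKβ+/+ mouse and X2409 lay above the lowest. The level was 1.74 times lower (log2 fold change -0.80, SE 0.215, 95% interval -1.25 to -0.35, adjusted p = 0.0633). Fasn, with the counts given above, was 3.13 times lower (log2 fold change -1.65, SE 0.474, 95% interval -2.64 to -0.66, adjusted p = 0.0746), with X2401 and X2406 below every IKKβ+/+ mouse.

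Both calls depended on single mice. Each was lost on leaving out any 1 of 7 mice, namely X2370, X2373, X2376 or X2378 of the IKKβ+/+ group and X2401, X2403 or X2406 of the IKKβ-/- group. The log2 fold changes were then -0.86 to -0.60 for Acly and -1.81 to -1.24 for Fasn, with adjusted p of 0.101 to 0.213 and 0.123 to 0.254. The IKKβ+/+ mouse X2372, whose adipocyte marker sum of 5158 was below those of all 4 IKKβ-/- mice, had 819 counts of Fasn, inside the range of the IKKβ-/- mice (461 to 1396), and 1220 counts of Acly, also inside their range (872 to 1382). The IKKβ+/+ mouse X2373 had a sum of 6963, inside the range of the IKKβ-/- mice (5478 to 8929). Its counts of Fasn (1660) and Acly (1539) were above those of all 4 IKKβ-/- mice.

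Acaca and Acss2 were near the threshold. Their log2 fold changes were -0.79 (SE 0.291, adjusted p = 0.144) and -0.61 (SE 0.223, adjusted p = 0.142), and both passed with DESeq2 (adjusted p = 0.0506 and 0.0716). Scd1 had an estimate of -1.56 with a wide interval, -2.83 to -0.28 (adjusted p = 0.171). Me1, Scd2 and Elovl6 had estimates of -0.29, -0.39 and -0.86, each with an interval that included 0.

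In the related lists few genes passed in this comparison. The supply gene Pcx was lower at -2.09 (adjusted p = 0.0723), as were Elovl7, a fatty acid elongase, at -1.501 (0.0784) and Hsd17b12 at -0.51 (0.0718). Irs2 was higher at 1.498 (0.0512), and so was Mgll, for monoglyceride lipase, at 0.39 (0.0902). Both comparisons that involve saline-infused IKKβ-/- mice share those 4 libraries, so their values are not independent. None of the 21 cholesterol genes passed. Alb, the hepatocyte marker, was at 30.6 to 307 counts in saline-infused IKKβ-/- mice and at 1.76 to 26.6 in saline-infused IKKβ+/+ mice (log2 fold change 2.97, adjusted p = 0.0779). Macrophage markers moved in the same comparison, with 2 of 8 that passed as lower, Cd68 at -0.93 (adjusted p = 0.0674) and Adgre1 at -1.02 (0.0779), and a median of -0.55. Their sum was 3257 to 4537 counts in saline-infused IKKβ-/- and 4909 to 6994 in saline-infused IKKβ+/+ mice, without overlap. Among endothelial, fibroblast and striated muscle markers none passed. All 7 endothelial and all 7 fibroblast estimates were negative, with medians of -0.80 and -0.48, and all 5 of striated muscle were positive, with a median of 1.24. After Ang II in IKKβ-/- mice Alb was at 0 to 6.35 counts (log2 fold change against saline -5.32, adjusted p = 0.00368). Apoa1 and Ttr, on the same list as Alb, were too low to be tested. The part of liver, macrophage and these other transcripts in the results was not tested.

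With Ang II, the genotypes were compared in the treated mice. None of the 10 members passed, against 0.128% of all genes and 1.54% with groups that did not overlap, and the median estimate was 0.06, ranging from -0.07 to 0.14 as single mice were left out. Scd1, at 1.65 (SE 0.577, adjusted p = 0.223), and Fads2, at -0.49 (SE 0.197, adjusted p = 0.274), were the members with an unadjusted p under 0.05. Without X2384 and X2385 the estimate for Fads2 was -0.13 (SE 0.167, adjusted p = 0.878). For Fasn the interval of the difference between the genotypes was -0.41 to 1.45 and for Acly -0.63 to 0.21. None of the genes of the 5 related lists passed here.

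Averaged over the genotypes, no member passed for Ang II against saline, where 12.7% of genes did, and the median estimate was 0.01, from -0.06 to 0.12 as single mice were left out. Fads2 came closest, at -0.35 (SE 0.143, adjusted p = 0.133). Averaged over the infusions, Acly passed as 1.42 times lower in IKKβ-/- SRAs (log2 fold change -0.50, SE 0.148, 95% interval -0.81 to -0.19, adjusted p = 0.0675), where 7.24% of genes passed. This call was lost without X2358, X2385, X2403 or X2406, with log2 fold changes of -0.49 to -0.46 and adjusted p of 0.103 to 0.154. The macrophage markers Cd68 and Adgre1 also passed as lower here, at -0.85 (adjusted p = 0.0224) and -0.65 (0.0794). Acly passed also with the adipocyte score in the fit (-0.45, SE 0.137, adjusted p = 0.0641).

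Because adipocyte markers moved with the members, the relation was measured within the groups. Over the 19 mice, deviations from the group means of Fasn and of the log2 sum of the white adipocyte markers had a Pearson r of 0.74 (permutation p = 0.00036, adjusted 0.0072) and a Spearman rho of 0.74 (p = 0.00132, adjusted 0.0151). Of the 20 relations tested, 10 members with each of 2 marker lists, 5 had an adjusted p under 0.1 for Pearson's r, all with adipocyte markers. Those of Acss2, Me1, Acaca and Scd1 had r of 0.69, 0.71, 0.67 and 0.68 (permutation p = 0.00168, 0.0108, 0.00086 and 0.00143, adjusted 0.0084, 0.0432, 0.0084 and 0.0084) and rho of 0.71, 0.60, 0.61 and 0.71 (adjusted permutation p = 0.0151, 0.0856, 0.0349 and 0.0151).

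The 5 relations were also computed without the 2 mice farthest from the median of the sum, X2384 and X2385. The r was then 0.78 for Fasn, 0.75 for Acss2, 0.68 for Me1, 0.79 for Acaca and 0.88 for Scd1. X2370 and X2372, with the highest and lowest sums of the saline-infused IKKβ+/+ group, were kept. Whether the relations rest on those mice was not tested. Acly had an r of 0.52 (permutation p = 0.0588, adjusted 0.196) and a rho of 0.41 (adjusted 0.314), and Elovl6 an r of 0.49 (permutation p = 0.0712, adjusted 0.203) and a rho of 0.54 (adjusted 0.133), which became r of 0.58 and 0.68 without the 2 mice. Scd2 had an r of 0.09 (permutation p = 0.754), and those of Fads1 and Fads2 were -0.30 and -0.43 (permutation p = 0.302 and 0.189), turning to 0.26 and 0.20 without the 2 mice. With Schwann cell markers, whose sum was 3548 to 7282 counts, r was between -0.10 (Fads2) and 0.40 (Acss2), with adjusted permutation p of at least 0.271.

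**Figure D3:**
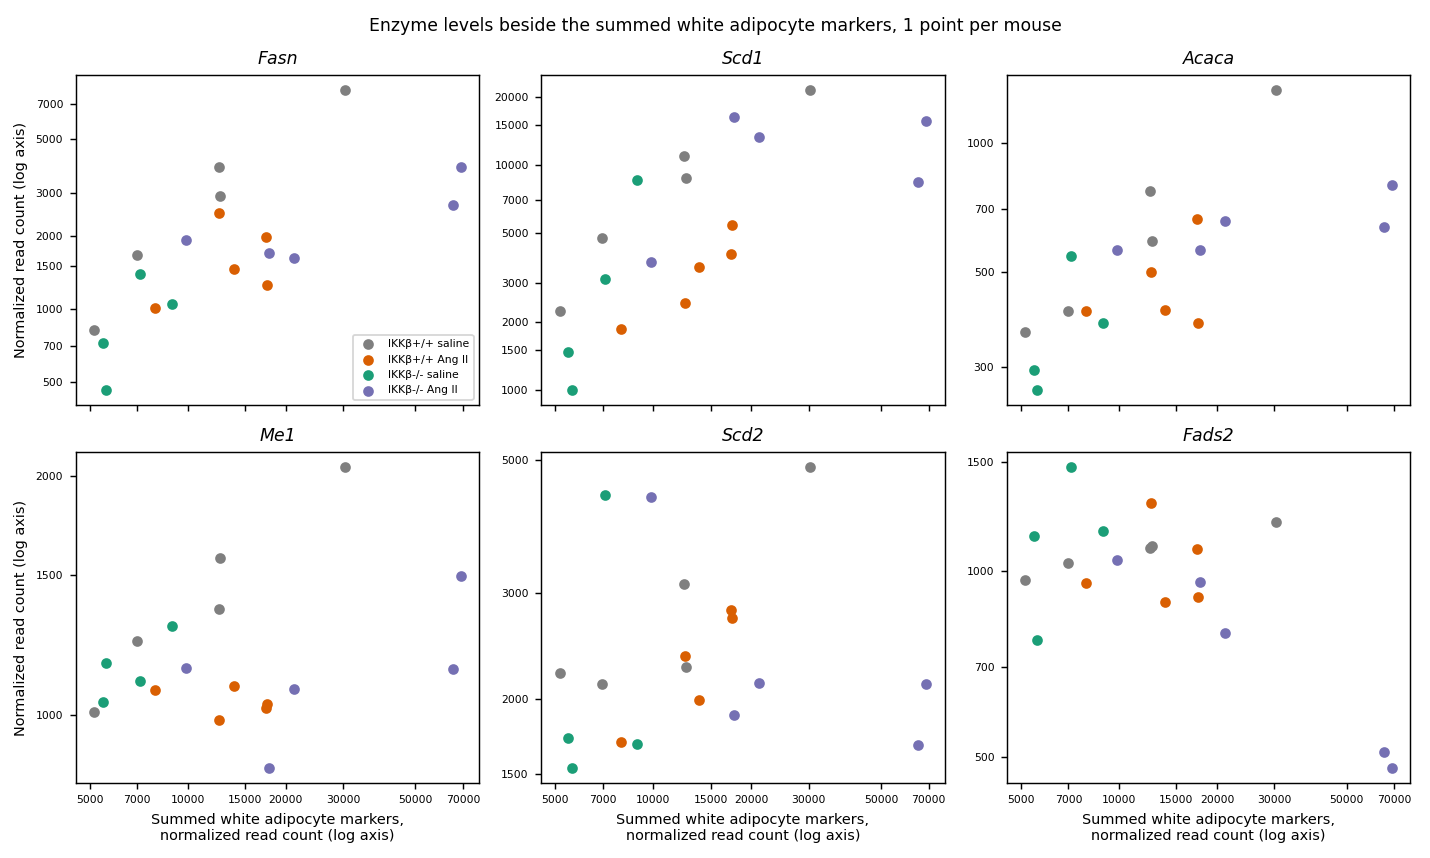
Normalized read counts of 6 enzymes against the summed white adipocyte markers of the same mouse, both on log axes and coloured by group. Deviations of Fasn, Scd1, Acaca and Me1 from their group means, pooled over the groups, rise with those of the sum (r = 0.74, 0.68, 0.67 and 0.71). This does not hold in each group. In Ang II-treated IKKβ+/+ mice the highest sum, in X2356, goes with the lowest Acaca. The 2 rightmost mice, X2384 and X2385, have the lowest Fads2.

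When the white adipocyte score of each mouse was added to the fit, every call between 2 single groups was lost and other calls appeared. Over all 14845 genes the calls went from 785 to 2 for Ang II in IKKβ-/- mice and from 812 to 121 between saline-infused mice. For Ang II in IKKβ+/+ mice they went from 1286 to 1427. The estimate for Scd1 after Ang II in IKKβ-/- mice changed sign, from 2.01 to -0.30 (SE 0.549, adjusted p = 0.895). In that comparison Fasn went from 1.41 to -0.28 (SE 0.464, adjusted p = 0.885) and Acaca from 0.84 to -0.04 (SE 0.334, adjusted p = 0.980). Of the 10 estimates 1 was positive, with a median of -0.29. Between saline-infused mice the estimates of Fasn and Acly became -0.71 (SE 0.369, adjusted p = 0.332) and -0.55 (SE 0.228, adjusted p = 0.229). In IKKβ+/+ mice 3 members now passed as lower after Ang II. They were Scd1 at -1.51 (SE 0.359, adjusted p = 0.0207), Fasn at -0.98 (SE 0.303, adjusted p = 0.0648) and Me1 at -0.50 (SE 0.120, adjusted p = 0.0222). The difference of the Ang II effect for Scd1 became 1.204 (SE 0.622, adjusted p = 0.896). The score itself differed between the groups compared and comes from the same libraries, so in IKKβ-/- mice the infusion and the adipocyte signal cannot be told apart.

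**Figure D4:**
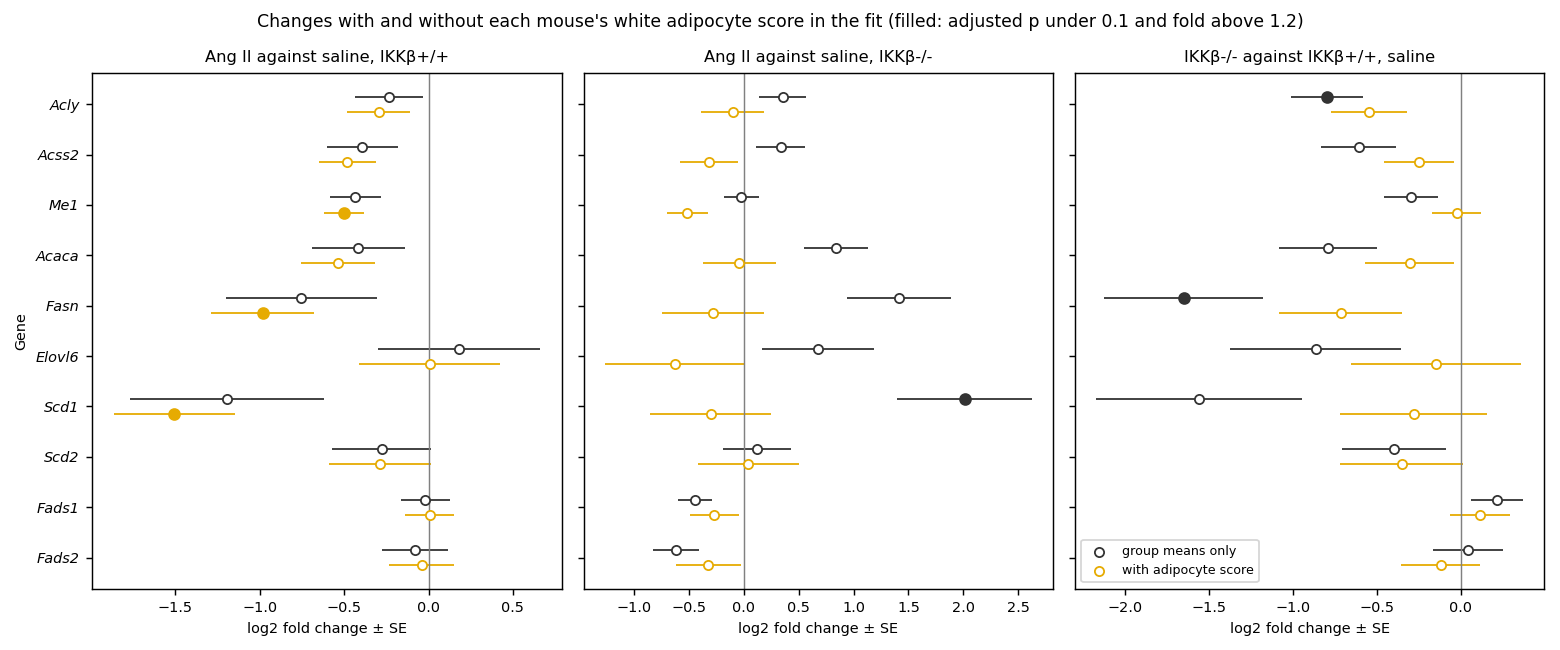
Log2 fold changes with their standard errors from the fit of group means and from the fit with each mouse's white adipocyte score as a further term, for 3 comparisons (filled points passed the test). With the score, Scd1 goes from 2.01 to -0.30 in IKKβ-/- mice and from -1.19 to -1.51 in IKKβ+/+ mice.

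Correlation between members over the mice is given as a description, since libraries and scaling are shared by all. Within groups, the 6 pairs among Fasn, Acaca, Acly and Acss2 had r between 0.77 and 0.91, the highest being Fasn with Acaca. The 16 pairs of Fads1 or Fads2 with another member had a median r of 0.22, and Fads1 with Fads2, which lie next to each other on chromosome 19, had 0.83. Scd1 and Scd2, which also lie on that chromosome (Scd2: ENSMUSG00000025203.6, plus strand, chr19:44293674-44306864), had an r of only 0.21. Scd2 went rather with Fads1 (0.67), Acss2 (0.72) and Acly (0.72).

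The genes most like each member over all 19 mice showed the same grouping, with r computed on log2 values without removing the group means. For Fasn they were Acaca (0.93), Tmem45b (0.87) and Acss2 (0.86), and for Acaca, Fasn, Tkt (0.86) and Pcx (0.82). Scd1 was most like Tmem45b (0.90), Cox8b (0.88), a cytochrome oxidase subunit on the brown adipocyte list, and Aldh1a7 (0.87). Scd2 was most like Srebf1 (0.86), Glt28d2 (0.81) and Mid1ip1 (0.80), which encodes an activator of acetyl-CoA carboxylase. Acly was most like Acss2 (0.86), Slc25a1 (0.80), the mitochondrial citrate carrier, and Fasn (0.79), and Elovl6 was most like Slc25a1 (0.80), 3010003L21Rik (0.78) and Rusc1 (0.75).

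Me1, Acss2 and the Fads genes completed this picture. Me1 (ENSMUSG00000032418.15, chr9:86581371-86695953) had no gene above 0.69, the closest being Pdk1 (0.69), Sdha (0.69) and Acss2 (0.69). Acss2 (ENSMUSG00000027605.18, chr2:155517948-155585724) was most like Acly, Fasn and Acaca (0.86, 0.86 and 0.82). Fads1 was most like Scaf1 (0.87), Fads2 (0.85) and Dcp1a (0.83), and Fads2 was most like Ipo13 (0.90), Ano6 (0.89) and Itga9 (0.89).

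**Figure D5:**
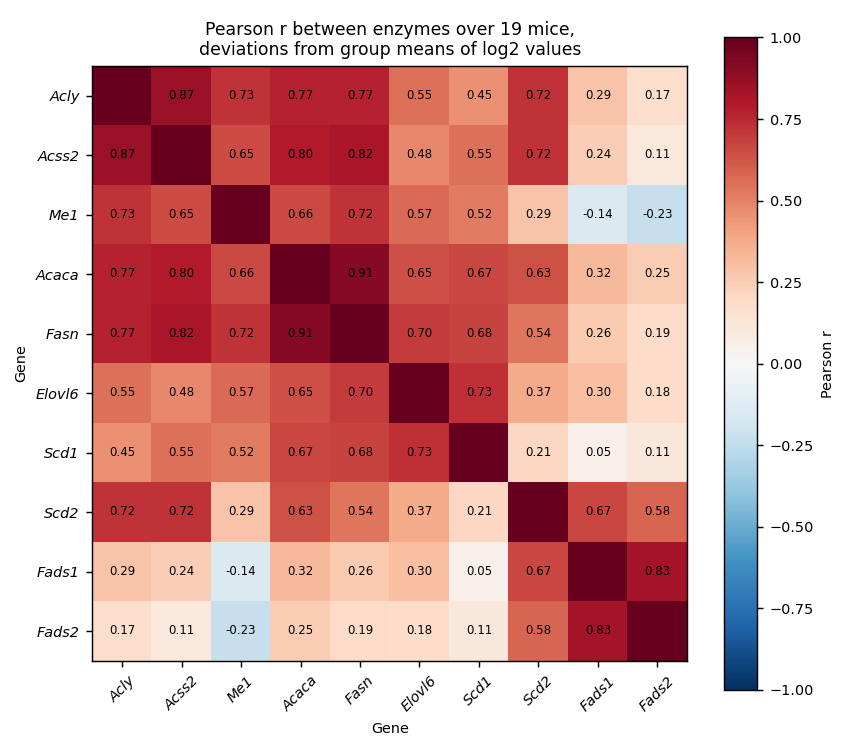
Pearson r between the 10 enzymes over 19 mice, on deviations from the group means of log2 values. The block from Acly to Scd1 ranges from 0.45 to 0.91, Fads1 and Fads2 form a pair at 0.83, and Scd1 with Scd2 is at 0.21.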

How the data were processed

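Poly(A) libraries of the suprarenal aorta were sequenced as single reads. According to the submitters' processing notes, the authors used Trimmomatic 0.35, STAR 2.7.1a, RSEM and DESeq2 1.30.1 with GRCm38. What the authors deposited is a signal per gene and mouse, the gene's count after division by a DESeq2 size factor. All values (100%, within 0.001 reads) were whole multiples of 1 read, and the reads so recovered were used only for the alternatives with edgeR 4.0.16 and DESeq2 1.42.0. Genes that reached 10 normalized counts in 4 or more mice were tested with limma 3.58.1 (R 4.3.3) on log2(value + 1), which understates changes of low genes, in a fit with 4 group means over all 19 mice. Tests were two-sided. Benjamini-Hochberg adjustment ran over all 14845 genes tested, and a call needed an adjusted p below 0.1 with a fold change over 1.2. Nothing states that the mice came from separate litters or days, so p-values measure the spread between these mice. No 2 mice of a group shared the reads of more than 2.08% of genes, so none was taken as a duplicate.

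The enzymes and gene lists were chosen with earlier results of these data known. From each list the genes that passed are named, at most the 4 with the largest change, with the 3 genes most like each member. The values of 1 gene of the cholesterol list are not reported here. Srebf1 and Mlxipl in the comparison of Ang II with saline were named after their values were seen. A marker sum is the sum of normalized counts and a marker score the mean of centred log2 values. Relations with marker sums used 100000 permutations within groups. Exon lengths came from Gencode vM21. The method was tested on simulated data. Alternatives tried were another pseudocount, no filter, only the groups compared, TMM scaling, edgeR, DESeq2, sample weights, other thresholds, adipocyte or Schwann cell scores in the fit, and leaving out each mouse. The brown adipocyte score and leaving out 2 pairs of mice were added after seeing the data. Analyses used Python 3.11.15.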

Additional observations from a re-analysis of the deposited data

Results flagged for a closer look

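Of 40 groups of mice (10 enzymes in 4 groups), 4 held a mouse far from the others by Dixon's gap on normalized counts. A rate of about 1 in 20 holds for normally distributed values in independent groups. These groups reuse the same 19 mice and the counts were not on a log scale, so no excess over that rate can be read. All 4 far values were high ones, in Scd2 or Fads1. Scd2 was at 4358 normalized counts in X2409 against 1535 to 1719 in the other saline-infused IKKβ-/- mice, and at 4325 in X2383 against 1676 to 2122 in the other Ang II-treated IKKβ-/- mice. Fads1 was at 2393 in X2409 against 1713 to 1800, and at 2199 in X2350 against 1374 to 1610 in the other Ang II-treated IKKβ+/+ mice. X2409, X2383 and X2350 each had the lowest mt-Co1 share of their group, at 2.83%, 2.36% and 2.74%. A relation of these values to that share was not tested.

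Scd1 and Fasn moved in opposite directions after Ang II in the 2 genotypes in every treated mouse, measured from the mean of the saline-infused mice of the same genotype. The tested differences were 3.21 (adjusted p = 0.242) and 2.17 (adjusted p = 0.269) on the log2 scale, and neither passed with limma.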

How the results depend on the processing

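No paired analysis was possible because the mouse numbers are not shared between groups. Counts of enzymes that passed, out of 10, were 0 for Ang II in IKKβ+/+ mice, 1 for Ang II in IKKβ-/- mice, 0 for the difference, 2 between genotypes with saline, 0 with Ang II, 0 for Ang II over genotypes and 1 for genotype over infusions. Leaving out each mouse gave, in that order, 0 to 1, 0 to 3, 0, 0 to 4, 0, 0 to 1 and 0 to 1. With only the groups compared, 2 passed for Ang II in IKKβ-/- mice. TMM scaling and edgeR passed 1 (Me1) in IKKβ+/+ mice, and edgeR passed 0 in IKKβ-/- mice. DESeq2 passed 1 in IKKβ+/+ mice, 3 for the difference and 4 between genotypes with saline, and in IKKβ-/- mice passed Fads2 and not Scd1 (adjusted p = 0.110). Sample weights passed 1, 3, 4 and 2 for Ang II in IKKβ+/+ mice, Ang II in IKKβ-/- mice, genotype with saline and Ang II over genotypes, and 0 for genotype over infusions. Calls over all 14845 genes also rose. For Ang II in IKKβ+/+ mice, Ang II in IKKβ-/- mice and genotype with saline the main fit passed 1286, 785 and 812 genes. DESeq2 passed 1887, 1164 and 1437, and sample weights 2074, 878 and 1902. For the difference DESeq2 passed 279 genes and the main fit 0. At an adjusted p under 0.05 all 4 calls were lost, leaving 0, and a fold above 1.5 left 0 for genotype over infusions.

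The white adipocyte score gave 3 for Ang II in IKKβ+/+ mice, 0 in IKKβ-/- mice, where Scd1 turned to -0.30, 0 for genotype with saline and 1 (Me1) for Ang II over genotypes. The Schwann cell score gave 1 and 0 for Ang II in IKKβ+/+ and IKKβ-/- mice (Scd1 1.66, adjusted p = 0.150). The brown adipocyte score gave 0 for Ang II in IKKβ-/- mice (Scd1 1.15, 0.393), 0 for genotype with saline and 1 for Ang II over genotypes. Without X2385 and X2406 there were 0, 0, 1 and 0 for Ang II in IKKβ-/- mice, genotype with saline, Ang II over genotypes and genotype over infusions. Without X2384 and X2385 there were 1, 0 and 0 for Ang II in IKKβ+/+ mice, Ang II in IKKβ-/- mice and genotype over infusions. The cause of these shifts was not tested. Of 2280 estimates of single enzymes under alternatives, 2184 kept their side of the threshold, with no call changing sign, 48 gained a call, 47 lost one and 1 lost its call and changed sign. The lowest value of any enzyme was 38.6 normalized counts (Elovl6).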
